A study of Mus musculus with 24 samples.

Results

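The proteasome subunit genes were examined in the nucleus accumbens (NAc), a striatal region of the brain's reward circuit, of mice that had or had not gone through early-life stress. They were taken by name, as protein-coding genes whose mouse symbol is Psm followed by a letter from a to g and a number, with a mean count of at least 10 over 24 libraries. Of 54 matching symbols, 50 were protein-coding and 49 reached the minimum, out of 52636 gene identifiers counted. The remaining gene was Psmb11, the thymus counterpart of the catalytic subunit Psmb5, with a mean count of 3.21. The members nearest to the minimum were Psma8, with a mean count of 11.6, and Psme2b, with 22.5.

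Each library came from the NAc of 1 C57BL/6 mouse (the substrain C57BL/6J in the study's methods) at postnatal day 50, with 6 animals in each of 4 groups. Con females and Con males were reared without the procedure. For MSUS females and MSUS males, the pups had spent 2 h daily apart from their mother on postnatal days 1 to 14, and the mother had been exposed to unpredictable stress. The separation time is that of the deposited design, and the study's methods give a longer one. The animals carried no transgene or drug treatment in the labels, and nothing in the sources used here said which of them shared a litter or cage.

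The proteasome is the large protease of the cytosol and nucleus that degrades proteins tagged with ubiquitin. Its core is a barrel of stacked rings, with structural alpha subunits outside and beta subunits inside, and only the beta subunits Psmb5, Psmb6 and Psmb7 cut peptide bonds. The regulatory particle caps the core: its base holds the ATPases that unfold the substrate, and its lid holds the deubiquitinase and scaffold subunits. Interferon induces the immune subunits Psmb8, Psmb9 and Psmb10, which replace the constitutive catalytic subunits and favor peptides for antigen presentation, and the activator subunits Psme1 and Psme2. In neurons the proteasome takes part in synaptic protein turnover and plasticity. By these roles the 49 genes held 14 core subunits (7 alpha, 4 structural beta and 3 catalytic beta), 17 regulatory subunits (6 ATPases, 3 other base subunits and 8 lid subunits), 6 immune genes and 11 accessory genes (activators, an inhibitor, assembly chaperones and the testis subunit Psma8). Psmc3ip shares the name only and is no subunit.

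The libraries held between 39923666 and 70575745 counts on the sense strand. The 10 markers of striatal projection neurons, such as Drd1 and Penk, were detected in every group, with summed levels of 2326 to 6417 CPM (counts scaled to library size). Markers of cortical excitatory neurons, such as Slc17a7 and Fezf2, were detected too, and their sums in females were 396 to 1950 CPM after Con and 233 to 933 CPM after MSUS rearing. The share of read pairs that the counting assigned to no gene ranged in females from 31.0 to 34.8% in Con and from 36.3 to 43.9% in MSUS, with no overlap. In males it was 34.7 to 40.6% in Con and 32.2 to 44.7% in MSUS, with the highest value of the series in MSUS male 1. The tissue was bulk, so fewer cells of a type and less RNA per cell cannot be told apart in any value that follows.

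Core and regulatory genes were expressed at high and similar levels, and immune genes far lower. In TPM, which corrects counts for transcript length and library size, the core genes ranged in Con females from 52.6 for Psma2, an alpha subunit, to 179 for Psmb6, the caspase-like catalytic subunit. This was a 3.41-fold range with a median of 113 TPM. The regulatory genes ranged from 56.2 for Psmd13, of the lid, to 177 for Psmc5, a base ATPase, with a median of 105 TPM. The median protein-coding gene stood at 20.3 TPM.

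The 6 immune genes spanned 34.0-fold. The activator subunits Psme1 and Psme2 led at 45.7 ± 4.11 and 34.2 TPM, Psmb10 followed at 18.7 ± 4.22, and Psmb8 and Psmb9 stood at 2.46 ± 0.637 and 1.47 ± 0.607 (SD, n = 6). Psme2b, a near-identical copy of Psme2, stood at 1.34 TPM, and reads from either gene may be dropped or misplaced by the counting, so both values are uncertain. Summed over the 3 immune catalytic genes, the level was 22.6 ± 4.41 TPM in Con females against 412 TPM for the 3 constitutive catalytic genes, or 5.49 ± 1.08%. MSUS females had 4.73 ± 0.421%, Con males 5.07 ± 0.404% and MSUS males 5.11 ± 0.709%, and the groups overlapped.

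**Figure D1:**
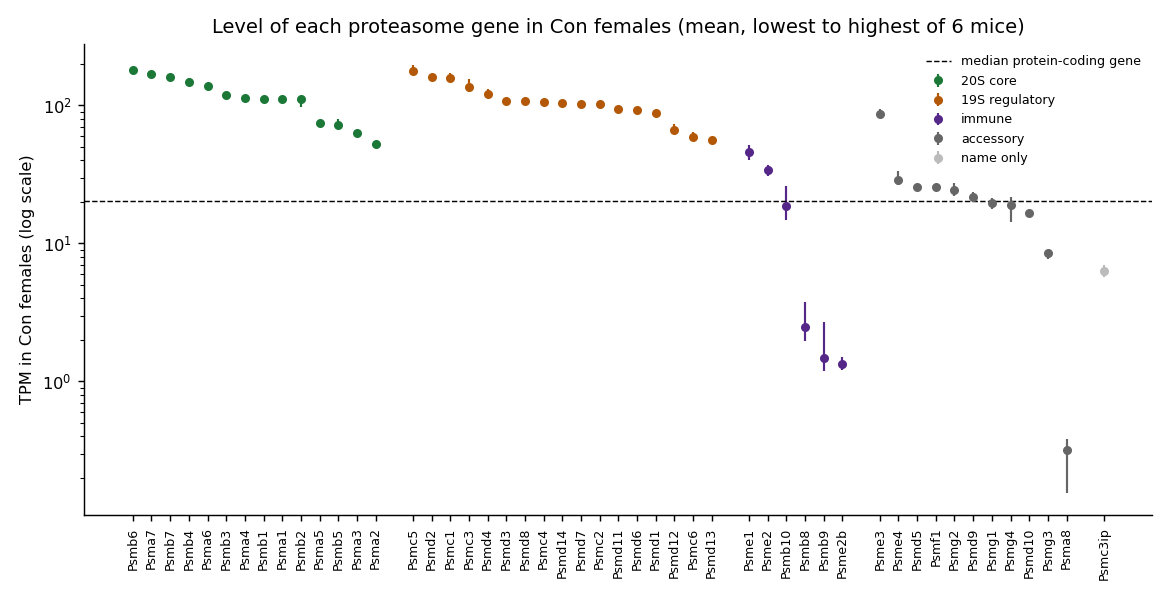
Level of each proteasome gene in Con females, in TPM on a log axis, by class; points are means and bars the range of the 6 animals, and the dashed line marks the median protein-coding gene at 20.3 TPM. Core and regulatory genes lie between 52.6 and 179 TPM, whereas Psmb8, Psmb9 and Psme2b lie under 3 TPM.

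In females, 8 of 14 core and 9 of 17 regulatory subunit genes were lower in MSUS than in Con animals, by small amounts. Such genes are said to have fallen here, without a cause being meant, since the unassigned share also separated these groups. Of the 49 genes, 19 fell and 0 rose at an adjusted p under 0.10 (edgeR's quasi-likelihood test with Benjamini-Hochberg adjustment over all genes), or 38.8%. Among all 20571 genes tested, 25.1% passed, 11.9% lower and 13.1% higher. The estimates were below 0 for 40 of the 49, with a median log2 fold change of -0.07, against -0.0027 over all genes tested. Of the other classes, 1 of 6 immune genes and 1 of 11 accessory genes fell. The median was -0.10 in the core, -0.09 in the regulatory, -0.04 in the immune and 0.00 in the accessory genes. The normalized counts of 7 members did not overlap between the groups, all with MSUS females lower, where 3.41% of all genes did the same. In TPM, the summed core level was 1626 ± 29.0 in Con and 1577 ± 22.3 in MSUS females, and the summed regulatory level 1840 ± 44.1 and 1787 ± 34.7 (SD, n = 6).

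**Figure D2:**
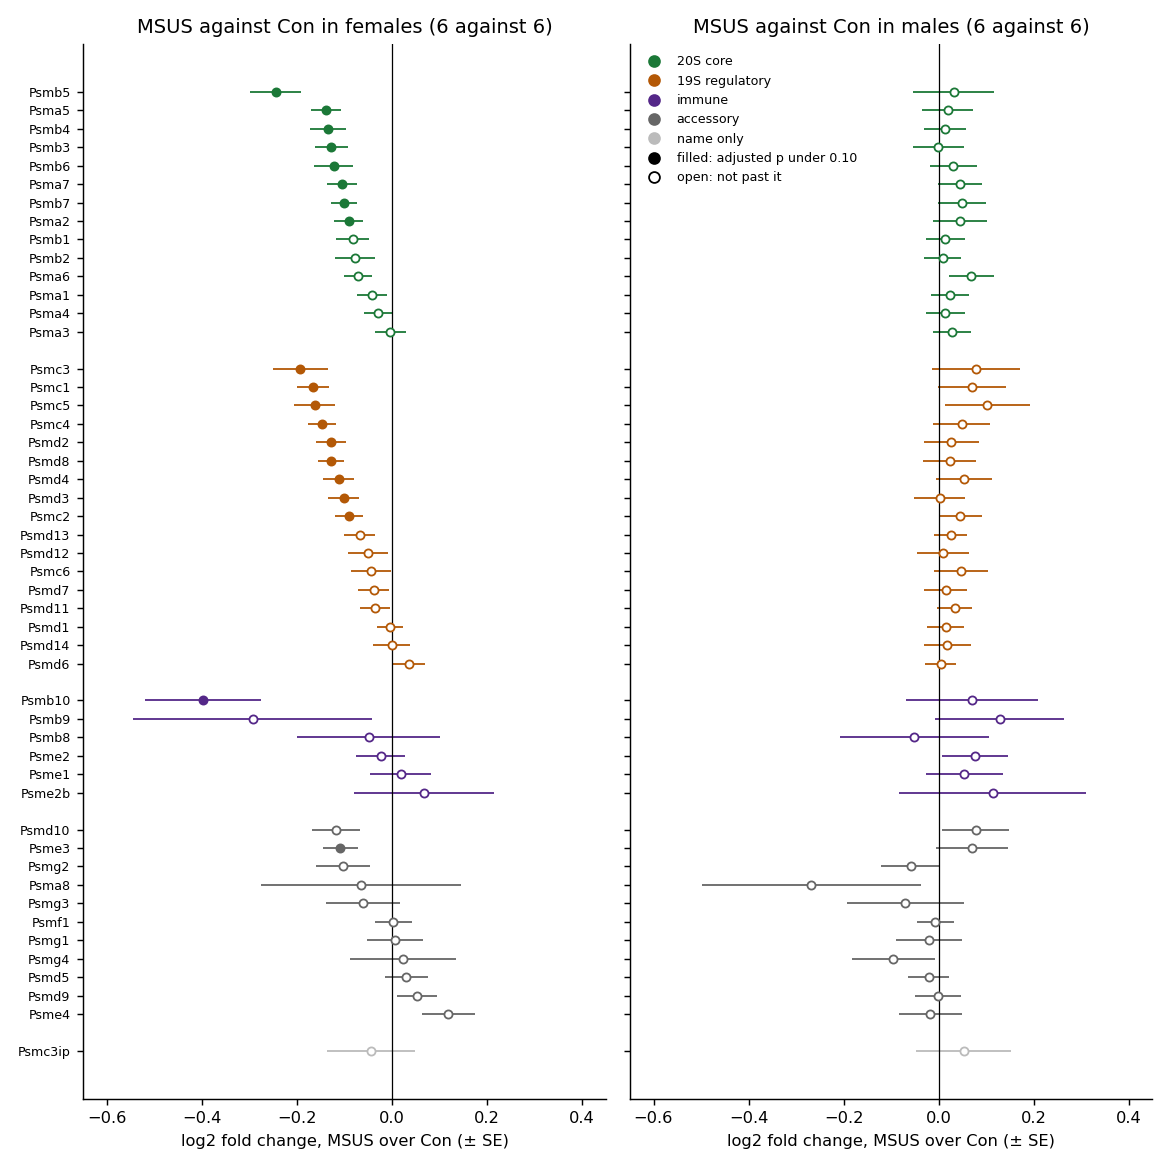
Log2 fold change (MSUS against Con) of each proteasome gene with its standard error, in females and in males, by class; filled points have an adjusted p under 0.10. All 14 core genes lie below 0 in females, with 8 of them filled, and no point is filled in males.

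Within the core, all 14 estimates were below 0, and the calls took in every kind of subunit. All 3 catalytic genes fell, with 3 of 7 alpha genes and 2 of 4 structural beta genes. Psmb5, the chymotrypsin-like subunit and the target of most proteasome inhibitors, ran from 1243 to 1462 normalized counts in Con females (median 1280) and from 1014 to 1195 in MSUS females (median 1111). The 2 groups did not overlap, and the log2 fold change was -0.25 (SE 0.0529, adjusted p = 0.0108). Psmb7, the trypsin-like subunit, ran from 3594 to 3926 (median 3806) and from 3460 to 3616 (median 3524), overlapping only at the edge, and fell by 0.10 on the log2 scale (adjusted p = 0.0273). Psmb6 ran from 2737 to 3022 (median 2964) and from 2422 to 2833 (median 2703), with a log2 fold change of -0.12 (adjusted p = 0.0572) and overlapping groups. The summed TPM of the 3 catalytic genes was 403 to 420 in Con females and 381 to 395 in MSUS females, without overlap.

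Among the alpha subunits, which form the gated outer rings, Psma5 ran from 1866 to 1944 normalized counts in Con females (median 1890) and from 1615 to 1802 in MSUS females (median 1742). All 6 MSUS females were below all 6 Con females (log2 fold change -0.14, SE 0.0312, adjusted p = 0.0126). Psmb3, a structural beta subunit, ran from 1772 to 1999 (median 1840) and from 1657 to 1792 (median 1688). Its groups overlapped narrowly, with a log2 fold change of -0.13 (adjusted p = 0.0308). Psma7, Psma2 and Psmb4 also fell, by 0.11, 0.09 and 0.13 on the log2 scale.

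The catalytic genes Psmb5 and Psmb6 were also among the members with an antioxidant response element upstream of the start. This short motif is bound by Nrf1, the factor encoded by Nfe2l1 that raises proteasome genes when the protease is impaired. It was picked from the 13 motifs searched with the lower Nfe2l1 counts of MSUS females known. The stretches are shown as a description, and whether Nrf1 acted on these genes was not tested. RefSeq windows (GRCm38.p6) were found for 41 of the 49 members, and the 250 bases before the start were searched on both strands for TGACNNNGC. Of the 41, 5 held a match (12.2%), against 10.2% of 32851 windows of all genes. The matches are printed on the gene's strand with the motif in capitals, and in Psmc6 and Psmd12 it reads on the opposite strand. The Psmb5 stretch lies at chr14:54618023-54618062 (minus strand), Psmb6 at chr11:70525328-70525356, Psmc6 at chr14:45329577-45329625, Psmd12 at chr11:107479278-107479309 and Psmd9 at chr5:123228139-123228187 (plus strand for these 4), all outside annotated exons.
Psmb5: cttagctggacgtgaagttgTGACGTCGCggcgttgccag
Psmb6: cagaggcggactaaagagagTGACGGAGC
Psmc6: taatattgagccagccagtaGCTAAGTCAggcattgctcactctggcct
Psmd12: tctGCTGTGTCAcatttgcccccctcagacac
Psmd9: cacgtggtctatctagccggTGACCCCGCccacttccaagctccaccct
Psmb5 and Psmb6 fell in MSUS females and the other 3 did not pass the test. The Psmd9 stretch lies inside the gene as GENCODE M21 places it (chr5:123169413-123250131, plus strand), because the RefSeq start used here is further in. In all 13 motifs were searched. The CCAAT box (CCAAT) was in 14 of the 41 members, or 34.1%, and in 33.8% of all windows and the ETS site (CCGGAAGT) was in 5, or 12.2%, against 2.88%, the highest of the motifs relative to all windows. The full antioxidant response element and both YY1 sites searched were in 0 of the 41.

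In the regulatory particle the calls were most frequent among the ATPases of the base. Of these, 5 of 6 fell, as did 2 of the 3 other base subunits and 2 of the 8 lid subunits. Psmc4, an ATPase, had the smallest p of all members and ran from 3038 to 3174 normalized counts in Con females (median 3127) and from 2686 to 2900 in MSUS females (median 2805). The groups did not overlap (log2 fold change -0.15, SE 0.0288, adjusted p = 0.00752). Psmc1, Psmc5, Psmc3 and Psmc2, also ATPases, fell by 0.17, 0.16, 0.19 and 0.09 on the log2 scale.

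Psmd2, the large scaffold of the base, ran from 9367 to 9969 normalized counts in Con females (median 9751) and from 8466 to 9189 in MSUS females (median 8860). Every MSUS female was below every Con female, with a log2 fold change of -0.13 (adjusted p = 0.0194). The ubiquitin receptor Psmd4 fell by 0.11 without overlap. Psmd8, a lid scaffold subunit, ran from 3203 to 3447 (median 3353) and from 2964 to 3103 (median 3046), also without overlap (log2 fold change -0.13, SE 0.0267, adjusted p = 0.00956). Psmd3 was the other lid gene that fell, by 0.10.

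Among the immune genes, Psmb10, the counterpart of Psmb7, fell in MSUS females and had the largest estimate of all members. It ran from 396 to 697 normalized counts in Con females (median 462) and from 355 to 440 in MSUS females (median 360). The groups overlapped, and the log2 fold change was -0.40 (SE 0.123, adjusted p = 0.0442). Without Con female 3, the highest library at 697, it was -0.28 (adjusted p = 0.0498).

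The other immune genes did not pass the test. Psmb8, the counterpart of Psmb5, ran from 66.3 to 125 (median 75.2) in Con females and from 72.5 to 90.8 (median 77.5) in MSUS females, with a log2 fold change of -0.05. Psmb9, the counterpart of Psmb6, ran from 32.6 to 75.1 (median 33.7) and from 18.6 to 42.3 (median 35.2), with a log2 fold change of -0.29 (SE 0.251, adjusted p = 0.438). Con female 1 was the highest library for both. Without it the estimate of Psmb8 turned to 0.11 and that of Psmb9 shrank to -0.02. The activator genes Psme1 and Psme2 stood at medians of 1029 and 671 in Con females and 1035 and 657 in MSUS females (log2 fold changes 0.02 and -0.02).

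The high values of Con female 1, looked at further after they had been seen, extended to the partners of the immunoproteasome in antigen presentation. Its count of Psmb8 was 125 against 66.3 to 75.8 in the other 5 Con females, and its count of Psmb9 75.1 against 32.6 to 34.9. Of 10 interferon-induced partners, 9 were highest in the same animal, led by Nlrc5, the activator of class I genes, at 156 against 45.7 to 58.5, and the peptide transporter Tap1 at 222 against 72.9 to 133. H2-D1 was not, nor were Psmb10 at 487 and the activator genes Psme1 and Psme2. Psmb8 and Psmb9 lie close together at chr17:34197721-34201454 and chr17:34181987-34187764, and Psmb10 lies at chr8:105935735-105938444 (GRCm38).

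**Figure D3:**
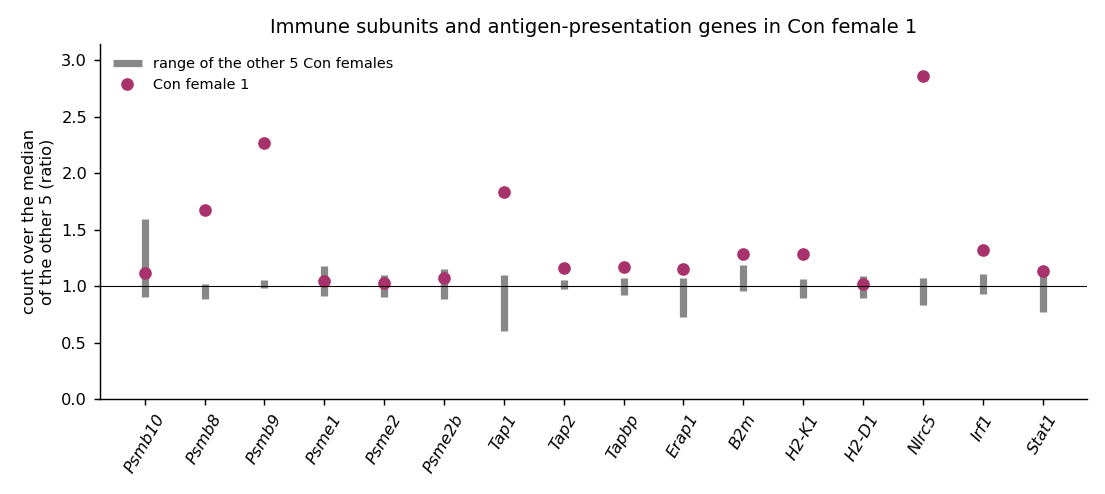
Ratio of the normalized count in Con female 1 to the median of the other 5 Con females, for the immune proteasome genes and 10 antigen presentation partners; bars give the range of the other 5. Nlrc5, Psmb9, Tap1 and Psmb8 lie at 2.86, 2.27, 1.83 and 1.67, and Psmb10, Psme1 and Psme2 inside the range of the others.

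Of the accessory genes, Psme3, a nuclear activator subunit, fell: it ran from 4561 to 5112 normalized counts in Con females (median 4684) and from 4117 to 4612 in MSUS females (median 4392). The groups overlapped narrowly (log2 fold change -0.11, adjusted p = 0.0617). Psme4, the activator that acts on histones and in sperm formation, had the largest positive estimate of the 49, at 0.12 (adjusted p = 0.156), and ran from 3495 to 4391 and from 3800 to 4362. The assembly chaperones Psmd10 and Psmg2 had log2 fold changes of -0.12 (adjusted p = 0.124) and -0.10, and the chaperone Psmd9 and the inhibitor Psmf1 had 0.05 and 0.0027. The lowest members, Psma8 and Psme2b, had -0.07 and 0.07, with standard errors of 0.211 and 0.147. Psmc3ip, which is no subunit, had -0.04.

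**Figure D4:**
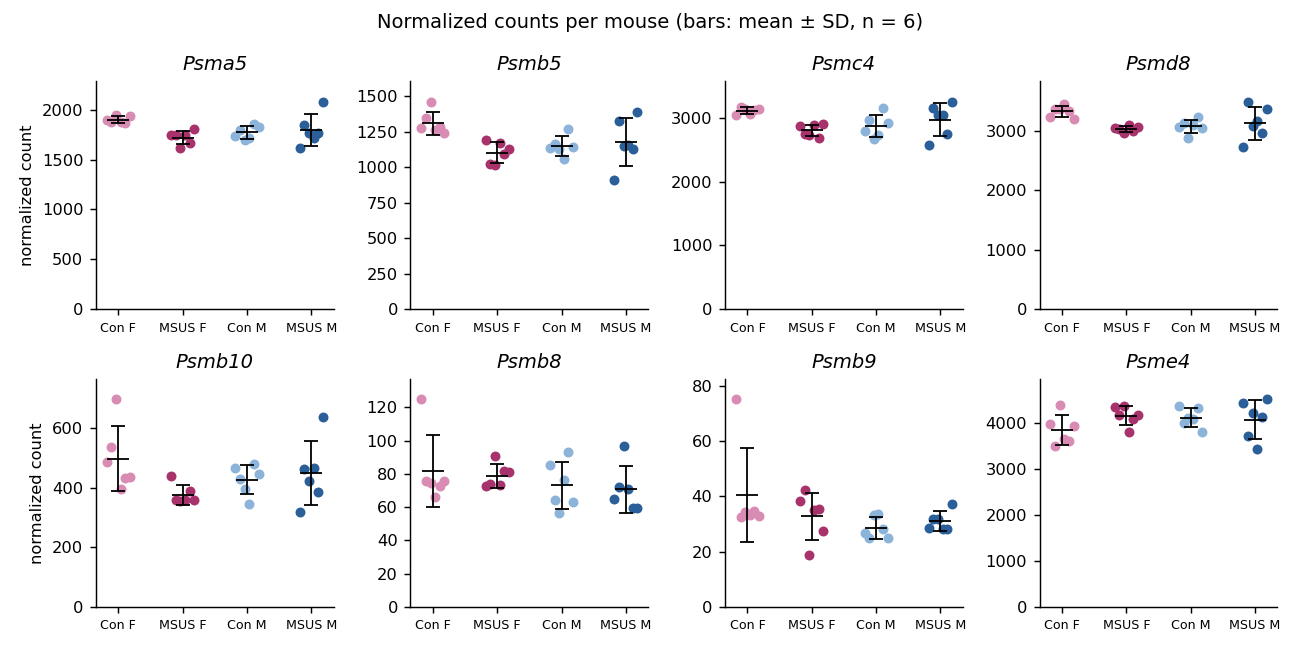
Normalized counts of 8 proteasome genes in every animal of the 4 groups, with group mean and SD. Psma5, Psmb5, Psmc4 and Psmd8 are lower in all 6 MSUS females than in any Con female, whereas Psmb8, Psmb9, Psmb10 and Psme4 overlap.

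Other genes of the ubiquitin and proteasome pathway that passed in MSUS females did so in both directions. Of 11 subunits and factors under other names, 2 fell and 1 rose, a share near the 25.1% of all genes that passed: Pomp, which assembles the core (log2 fold change -0.17, adjusted p = 0.0130), Ubxn1 (-0.14) and the proteasome adaptor Ecpas (0.08). Among the shuttle factors that carry ubiquitinated proteins to the proteasome, Ubqln4 fell by 0.23 on the log2 scale. Among 7 genes of Nrf1 control, Nfe2l1 fell by 0.16 (adjusted p = 0.00956) and the others did not pass. Of 8 genes of the p97 segregase and its cofactors, Vcp itself fell by 0.12 and Faf1 rose by 0.11. Among the genes for ubiquitin and its activating enzymes, Uba1 and Ubb fell, by 0.19 and 0.13, and Uba6 rose by 0.17. Among 10 interferon-induced partners of the immunoproteasome, H2-D1 fell by 0.19 and the others did not pass.

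For comparison, of 80 cytosolic ribosomal protein genes 12 fell and 1 rose in the same fit (median log2 fold change -0.08), where 11.9% of all genes fell, and of 82 nuclear genes of oxidative phosphorylation 65 fell (median -0.16). The median of the proteasome genes, -0.07, was thus near that of the ribosomal protein genes. Differences between these sets were not tested.

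The share of unassigned read pairs moved with the female comparison, since its ranges in the 2 groups did not overlap. Rearing and this library difference can therefore not be told apart in females. With that share as a covariate, 0% of all 20571 genes passed by edgeR's quasi-likelihood test, so the loss of every call was not particular to the 49 members, of which 0 had an unadjusted p under 0.05. Over all 49 members the median log2 fold change was -0.02 with the share, against -0.07 without it, and -0.0083 over all genes with the share. The 19 members that fell had been chosen by low values in these same females. With the share, their estimates ran from -0.46 to -0.02, with a median of -0.09 and adjusted p from 0.760 to 0.965. Without it, their median was -0.13. Cortical markers also moved: 2 of 10 fell in MSUS females (median log2 fold change -1.75), none was at 0 in any group, and with their score as a covariate 8 members passed, all lower, where 2.52% of all genes passed as lower, and 5 of the 8 were core genes. Oligodendrocyte markers fell for 4 of 6 genes (the sums were 3523 to 5153 CPM in Con and 3184 to 3907 CPM in MSUS), and 2 of 7 astrocyte markers fell. None of the 10 striatal, 8 microglial and 6 endothelial markers passed, nor did the 1 of 7 lymphocyte markers that was high enough to be tested. The part of cell composition in these results was not tested beyond these fits.

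In males, MSUS changed no proteasome gene detectably. Of the 49, 0 passed by edgeR's quasi-likelihood test, 0 by DESeq2 and 0 had an unadjusted p under 0.05. Over all genes edgeR called 0% and 191 of 20691 had an unadjusted p under 0.05. The median log2 fold change of the members was 0.03. The smallest p was that of Psma6, an alpha subunit, which ran from 2622 to 2943 normalized counts in Con males (median 2853) and from 2643 to 3163 in MSUS males (median 2972), with a log2 fold change of 0.07. Psmb5 ran from 1059 to 1270 and from 910 to 1387, so that the MSUS males spread on both sides of the Con males. The 19 members that fell in females had estimates from -0.00071 to 0.10 in males, 18 of them above 0. Summed core levels were 1590 ± 47.3 TPM in Con males and 1612 ± 50.6 TPM in MSUS males (SD, n = 6).

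Within males, where the 2 groups overlapped in unassigned share, the 19 members followed that share, a relation looked for after the values had been seen. Over the 12 males, all 19 correlated negatively with it, with Pearson's r from -0.94 to -0.81 (permutation test with 100000 resamples, highest Benjamini-Hochberg adjusted p over the 19 relations 0.00174, and 0.00869 for Spearman's rho). Without the 2 males farthest from the median share, r ran from -0.91 to -0.62. Within Con males r ran from -0.94 to -0.47 and within MSUS males from -0.98 to -0.80. For Psmc4, r was -0.94 and rho -0.91: MSUS male 6 had 32.2% unassigned pairs and 3253 normalized counts, and MSUS male 1 had 44.7% and 2581. Within the female groups of 6, r was below 0 for 5 of the 19 within Con females (-0.67 to 0.69, median 0.13) and for all 19 within MSUS females (-0.92 to -0.063, median -0.54), and these were not tested. Of all 49 members, 25 had an r under -0.8, or 51.0%, against 5.2% of 21500 genes. That cut was set after the values had been seen, and all 19 lay under it. Of the 30 members not called in females, 6 lay under it, or 20%, and their median r was -0.49. Psme1, Psme2, Psmb8, Psme4 and Psmd9 did not share the pattern, with r of 0.12, -0.03, -0.07, 0.31 and 0.38. The male libraries with the lowest share of their groups, Con male 5 and MSUS male 6, also had the highest cortical marker scores (0.858 and 1.41). Which of the 2 measures the counts followed was not tested.

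**Figure D5:**
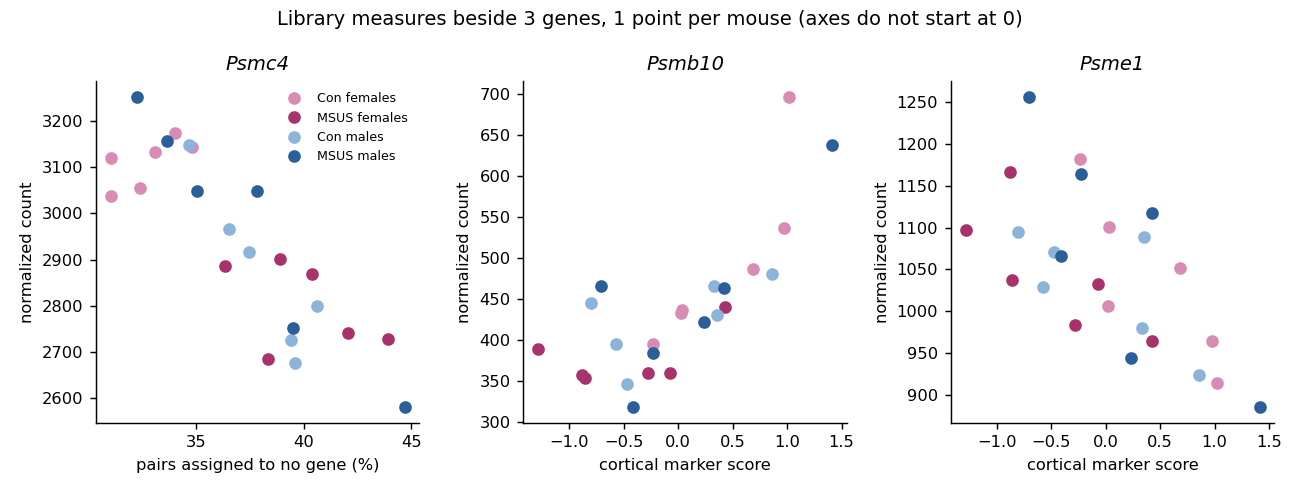
Normalized counts of Psmc4 against the percent of read pairs assigned to no gene, and of Psmb10 and Psme1 against the cortical marker score (mean standardized log2 CPM of the markers), 1 point per animal, colored by group. Psmc4 declines with the share over the 12 males (r = -0.94) but not within the 6 Con females (r = 0.69), and the highest Psmb10 count, 697, belongs to the Con female with the highest score.

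The library with the most cortical marker signal in each group, picked after its values were seen, was also compared with the other libraries of its group. It had the highest count in all 4 groups for 7 of the 49 members, or 14.3%, against 9.87% of 21500 genes: Psmb10, Psmb5, Psmc3, Psmc5, Psmc6, Psmd12 and Psme3. Psmb10 reached 697, 440, 481 and 638 in those libraries. It had the lowest count in all 4 groups for Psme1, Psme2 and Psmc3ip, or 6.12% against 5.76%. In males these libraries, Con male 5 and MSUS male 6, also had the lowest unassigned share of their groups (34.7 and 32.2%). In females, Con female 3 and MSUS female 1 had 33.1 and 40.4%, which were not the lowest of their groups.

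Con females stood above Con males for most proteasome genes, but few passed the test. By edgeR's quasi-likelihood test 2 of 49 were higher in females and 0 lower, with 2.64% of 20641 genes called, 0.799% higher and 1.84% lower. Of the 49 estimates, 45 were above 0, with a median log2 fold change of 0.08 against 0.01 over all genes. With the unassigned share as a covariate, the median of the 49 was -0.00010. That share was 31.0 to 34.8% in Con females and 34.7 to 40.6% in Con males. The catalytic gene Psmb5 was higher, with 1243 to 1462 normalized counts in Con females and 1059 to 1270 in Con males, overlapping at the edge (log2 fold change 0.19, SE 0.0504, adjusted p = 0.0892). So was Psmb4, a structural beta subunit (0.13, adjusted p = 0.0949). DESeq2 called 8, all higher, where it called 2.8% of all genes higher, and 0 passed with the unassigned share or the cortical score as a covariate, with length offsets or with a replicate block. With each library left out in turn, the call of Psmb5 was lost in 10 of 12 fits and that of Psmb4 in 11 of 12. These Con females are the same animals as in the MSUS comparison, so the values of both comparisons share them.

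Between MSUS females and MSUS males 0 of 49 passed by edgeR or DESeq2, 0 had an unadjusted p under 0.05, and 0.135% of 20714 genes were called by edgeR. The smallest p was that of Psma6 (log2 fold change -0.09, adjusted p = 0.667). The 19 members that fell in MSUS females had estimates from 0.08 to 0.22 between the sexes in Con and from -0.26 to -0.02 in MSUS. They had been chosen by values of these same Con and MSUS females, so these signs follow in part from that choice.

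The difference of the MSUS effect between the sexes did not pass the test for any member over all 24 libraries. By edgeR's quasi-likelihood test 0 of 49 passed (0% of all genes), and DESeq2 called 0 of 49, where it called 2.17% of all 21500 genes. An unadjusted edgeR p under 0.05 was found for 21 members, all in the direction of a lower value in MSUS females, and for 4031 of all genes, or 18.7%. The smallest p was that of Psmc4, with an interaction of -0.20 on the log2 scale (SE 0.0657, adjusted p = 0.200). This result turned on MSUS male 1, the library with 44.7% unassigned pairs. Without it, 20 of 49 passed, all lower in MSUS females, with adjusted p from 0.0239 to 0.0900, where 14% of all genes passed and 5.72% were lower. They were 9 core, 8 regulatory, 1 immune and 2 accessory genes, and 18 of them were among the 19 that fell in the female comparison. The interaction uses the same females as that comparison, so this overlap is no independent result.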

How the data were processed

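RNA-seq was performed on the NAc of 24 mice, 1 library each. Per the study's methods, the authors trimmed adapters, aligned the reads with STAR to mm10 with the GENCODE M15 annotation and tested genes with DESeq2. The submitters' notes give STAR 2.6.1b and also name CASAVA 1.8 and HTSeq, whose roles are not given in the sources used here. The authors deposited STAR's raw read counts per gene, from which the sense-strand column was used here. Symbols, positions and types were taken from GENCODE M21 (GRCm38), which held 52489 of 52636 identifiers. Reads that matched several genes or none were not counted, which lowers genes with near-identical copies, and the share assigned to no gene was kept as a library measure. Animals were grouped by the labels for treatment and sex. Estrous stage was not used.

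Counts were filtered with filterByExpr (minimum count 10), scaled by TMM and tested with edgeR 4.0.16 (quasi-likelihood; limma 3.58.1, R 4.3.3) at an adjusted p under 0.10 over all genes, for MSUS against Con within each sex, females against males within each group, and the interaction over all groups. DESeq2 1.42.0 was an alternative, beside another normalization, filters, strandedness, leaving out each library and covariates. All 49 members passed the filter in every comparison. TPM used the median length of a gene's APPRIS principal transcripts, or its exonic union where it had none. For the normalized counts, libraries were brought to a common scale with size factors that DESeq2 estimated over all 24 animals, not with TMM. Other steps used Python 3.11.15 with scipy 1.17.1 for rank statistics, numpy 2.4.6 and pandas 2.3.3 for tables, and matplotlib 3.10.9 for plots. The scripts were tested on simulated data for the female comparison only. There, 2 of 68 genes changed by 0.15 on the log2 scale were called, 19 of 66 changed by 0.30, and 7 of 20160 unchanged genes. Of the 20360 genes there, 20160 were unchanged, whereas 25.1% of the genes tested in females passed. The shares called may therefore differ in the data used here. How often changes as small as most of those given here were missed was not tested. No 2 libraries of a group agreed within sampling noise (lowest chi-square per gene 6.29 over 60 pairs).

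Values are given for the member with the smallest p in each class and comparison, the constitutive and immune catalytic subunits with Psme1 and Psme2, the 3 largest rises and falls in females, and list genes past the threshold, except some pathway genes that are not reported here. Other members that are named were chosen after their values were seen. The members, classes and lists were chosen with earlier results of these data known.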

Additional observations from a re-analysis of the deposited data

Results flagged for a closer look

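Among 196 sets of 6 animals (49 members in 4 groups), 14 had 1 library that lay far from the others by Dixon's test at the 95% level, and chance alone gives about 1 in 20. No explanation was tested. Values are normalized counts.

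In Con females, Psmb8 and Psmb9 stood at 125 and 75.1 in animal 1, above the other 5. Con female 2 was the lowest for Psma3 (3349 against 3716 to 3809), Psmd1 (5321 against 5599 to 5689) and the lid deubiquitinase Psmd14 (2971 against 3265 to 3409). Con female 3 was the highest for the ATPase Psmc3 (5199 against 4223 to 4553) and the lowest for Psmb4 (3340 against 3563 to 3697). Con female 5 was the lowest for the testis subunit Psma8 (5.45 against 10.4 to 13.2).

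In MSUS females, animal 1 was the lowest for Psmb2 (1735 against 1823 to 1869) and Psmd9 (1122 against 1185 to 1215). Animal 2 was the lowest for Psmd11 (3906 against 4191 to 4254) and the highest for the inhibitor Psmf1 (1454 against 1297 to 1355). In MSUS males, animal 3 was the highest for Psmb8 (96.8 against 59.5 to 72.0), and animal 6 was the lowest for Psmc3ip (116 against 154 to 172). Con males had no such library.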

How the results depend on the processing

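In females the count of 19 members past the threshold lay between 13 and 24 at an adjusted p under 0.05 (15), with DESeq2 (21), without a filter (13), without regard to strand (24), with the library set as a term (20) and in a fit over all 24 libraries (13). It moved to 6 with a replicate block and transcript length, to 0 with the unassigned share and to 8 with the cortical score, and lay between 13 and 22 with 1 library left out. The replicate block alone gave 16, with Psme4 higher. Whether the replicate numbers pair the animals could not be told from so few pairs: 4 of 6 female pairs and 2 of 6 male pairs had a correlation over 0.1. Between the sexes in Con the count of 2 moved to 0 at an adjusted p under 0.05, without a filter, with the replicate block alone or with length, with length, unassigned share or cortical score, and over all libraries, to 1 with DESeq2's size factors, to 8 with DESeq2 and to 7 without regard to strand, and lay between 0 and 6 with 1 library left out, with 6 without Con male 5. The counts of 0 in males and between the sexes in MSUS did not move, and that of the interaction lay between 0 and 20, with 20 without MSUS male 1. The ratio of MSUS to Con females in summed core and regulatory levels was 0.970 and 0.971 in TPM and 0.938 and 0.936 in CPM. The immune share of the catalytic genes was 7.73, 6.69, 7.13 and 7.17% from counts and 7.92, 6.88, 7.45 and 7.53% by exonic union length, an alternative added after the data were seen (Con females, MSUS females, Con males, MSUS males).

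Some estimates changed sign; changes within 1 standard error of 0 in both fits are left out. In females these were Psmb8 without Con female 1 (0.11, against a lowest value of -0.10 with another library left out), Psmb9, Psme4 and Psma6 with the unassigned share (0.41, -0.021 and 0.0078), Psme1 and Psmd9 with the cortical score (-0.12 and -0.018) and Psmd9 without regard to strand (-0.0016). Between the sexes in Con, with the unassigned share, they were Psmd10 (-0.061), Psmd2 (-0.019), Psme3 (-0.00010), Psmb7 (-0.066), Psme2b (-0.086) and Psma6 (-0.029). In MSUS they were Psmb5 and Psme3 with the unassigned share (0.027 and 0.019) and Psma5 and Psme3 with the cortical score (0.0037 and 0.019). In the interaction, with the unassigned share, they were Psmd2 (0.019), Psmb5 (0.013), Psmb3 (0.037), Psmd8 (0.0023) and Psme3 (0.047). The cause was not tested for any of these.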

Other observations

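Gene span went weakly with the female estimates, described here without a test. Across the 49 members, which share the same libraries, Spearman's rho of the log2 fold change with span was 0.32, against 0.13 across 14949 protein-coding genes. The median span was 9.92 kb for the 19 members that fell and 15.9 kb for the other 30.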
